A study of Mus musculus with 4 samples.

Results

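The contacts of 1 promoter, that of Cited2, were followed through 4 H3K4me3 HiChIP-seq libraries of MLg cells, a mouse lung fibroblast line. Cited2 (ENSMUSG00000039910.10) lies on the + strand at chr10:17723218-17725674 (GRCm38, the mm10 build), and its transcription start site (TSS) is at position 17723218, in the 10-kb bin chr10:17720001-17730000. It was chosen by its number of partner bins, from 21755 protein-coding genes of which 8122 promoters had an H3K4me3-enriched region, after earlier counting of these same libraries had put its bin at the top, so its numbers of contacts and partners are a description and carry no test. HiChIP-seq joins DNA ends that lie close together in the nucleus and then precipitates chromatin with an antibody, here against H3K4me3, a mark of active promoters, which enriches for contacts of marked places, although most pairs here had no end in an enriched region. Control cells, cells given TGFB1 at 5 ng/ml for 4 h, cells given TGFB1 and the miR-9 antagomiR (TGFB1+miR-9-LOF, the combined library below) and cells with the antagomiR alone (miR-9-LOF, loss of function) gave 1 library each, harvested 24 h after transfection. Values in series follow this order of libraries. The antagomiR, an oligonucleotide that blocks the miRNA, was used at 60 nM, and the protocol also lists a negative control antagomiR at that dose, which the labels do not name for Control or TGFB1. With 1 library per condition, intervals cover counting error only, a difference between libraries has no replicate check, and condition and library cannot be told apart.

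CITED2 is a transcriptional co-regulator without DNA-binding domain of its own. It binds the histone acetyltransferases CBP and p300, competes with HIF1A for them and so limits the response to low oxygen, and acts as co-activator of TFAP2 factors and of SMAD2 and SMAD3, which carry the TGFB signal. It is needed in heart, neural tube and left-right development.

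Shown are the sequences of the promoter, of the miRNA that was blocked, and of 300 bases each from the desert bin with most pairs, which passed the call in no library at equal depth and in Control at full depth, and from the bin furthest above expectation among those with at least 4 pairs in each library, a called partner, shown to let their base content be set beside that of the promoter. The promoter sequence is that of RefSeq (GRCm38.p6, chr10:17722978-17723277, + strand), from 250 bases before RefSeq's own gene start to 50 after it, a start that lies a few bases downstream of the GENCODE TSS given above. Capitals mark the cutting sites of MboI (GATC), the enzyme that made the ends that were joined, and the core of the HIF response element (ACGTG, either strand).
Cited2 promoter: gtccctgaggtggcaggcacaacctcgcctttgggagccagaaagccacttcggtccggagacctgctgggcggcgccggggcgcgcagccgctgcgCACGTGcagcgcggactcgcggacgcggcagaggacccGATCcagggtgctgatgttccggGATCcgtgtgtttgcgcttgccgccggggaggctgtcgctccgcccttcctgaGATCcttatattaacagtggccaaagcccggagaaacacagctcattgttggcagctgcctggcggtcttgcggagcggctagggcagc
mmu-miR-9-5p: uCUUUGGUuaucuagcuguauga
Desert bin with most pairs, chr10:17587098-17587397: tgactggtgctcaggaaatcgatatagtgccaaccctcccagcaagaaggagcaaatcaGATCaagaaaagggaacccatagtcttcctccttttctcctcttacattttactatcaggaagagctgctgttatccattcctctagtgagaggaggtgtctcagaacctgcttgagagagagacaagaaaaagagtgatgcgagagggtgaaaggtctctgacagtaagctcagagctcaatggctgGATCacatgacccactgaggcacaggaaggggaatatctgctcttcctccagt
Partner bin at 730 kb, chr10:16991017-16991316: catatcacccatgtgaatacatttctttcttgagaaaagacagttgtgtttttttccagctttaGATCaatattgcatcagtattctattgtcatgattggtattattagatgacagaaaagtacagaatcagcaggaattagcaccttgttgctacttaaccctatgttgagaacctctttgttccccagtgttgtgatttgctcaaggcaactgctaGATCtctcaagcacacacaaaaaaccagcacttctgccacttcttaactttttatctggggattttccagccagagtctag
In the miRNA, which RefSeq places at Mir9-1, Mir9-2 and Mir9-3 with identical mature sequence, capitals mark the seed (bases 2 to 8), and in the desert stretches, which are on the + strand, they mark MboI sites. The promoter window held 3 MboI sites, and 3.35% of 32851 RefSeq promoter windows held as many. It held 2 overlapping matches of ACGTG, 1 on each strand, in the palindrome CACGTG that begins at position -153 from the RefSeq gene start, where 19.6% of the promoter windows held a match and 8.21% held as many. The 7-base complement of the miR-9 seed (ACCAAAG, either strand) was not in this window, and was in 4.23% of all windows. Its last 6 bases (CCAAAG) matched at 2 places, where 19.3% of the windows held a match and 2.12% held as many. G and C made up 66.7% of the promoter window, 47.7% of the first desert stretch and 38.3% of the second.

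The libraries held 10864558 to 15568047 valid pairs, of which 4793354 to 6692306 joined places of 1 chromosome 20 kb to 2 Mb apart. The share of pair ends in H3K4me3-enriched regions was 9.55%, 6.89%, 4.02% and 4.66%. Of 13 fibroblast marker genes 8 had an enriched region within 2 kb of the TSS, among them Col1a1, Pdgfra and Twist1. Col1a2, Col3a1, Thy1, Tcf21 and Fn1 had none. Of 6 epithelial, 4 endothelial and 4 immune markers 0 had one. Over all 21755 protein-coding genes 8122 had one. Enriched regions numbered 8487. That of Cited2 spanned 2 kb (chr10:17722001-17724000), stood 14.3-fold above its background at its highest, more than 91.8% of them, while 31.7% of the regions were as wide or wider. Of every 1000000 pair ends it held 30.6, 24.8, 11.4 and 12.9 in the 4 libraries.

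Cited2 stands at the edge of a gene desert. On the lower-coordinate side, which lies upstream of the gene, 0 protein-coding TSS were annotated within 2 Mb, and the nearest, Gje1, was 3005 kb away. This side held 10 lncRNA TSS and 0 enriched regions. On the higher-coordinate side 16 protein-coding TSS and 10 enriched regions lay within 2 Mb, beginning with Txlnb at 73.0 kb.

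Most contacts of the Cited2 promoter went into the desert. Within 10 kb of the TSS 840 pairs of 20 kb to 2 Mb ended in Control, and 726 of them (86.4%, 95% exact binomial interval 83.9 to 88.7) reached to the desert side. In TGFB1 the desert side took 436 of 510 pairs (85.5%, 82.1 to 88.4), in the combined library 342 of 407 (84.0%, 80.1 to 87.5) and in miR-9-LOF 351 of 428 (82.0%, 78.0 to 85.5). The larger side of the median promoter with an enriched region took 57.4% to 58.0% of its pairs, and 46 to 75 of 8066 to 8111 promoters with at least 50 pairs were at least as one-sided as Cited2.

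How many pairs to expect was computed in each library from the coverage at both ends and their distance. Summed over the libraries, 1855 pairs were observed on the desert side where 886 were expected (2.09 times, 95% Poisson interval 2.00 to 2.19). On the gene side 330 were observed where 896 were expected (0.37 times, 0.33 to 0.41). The expectation was thus nearly equal for both sides, and the observed pairs differed in the same direction in each library. The desert side stood at 2.22, 2.07, 1.99 and 2.01 times expectation and the gene side at 0.35, 0.34, 0.38 and 0.42 times.

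**Figure D1:**
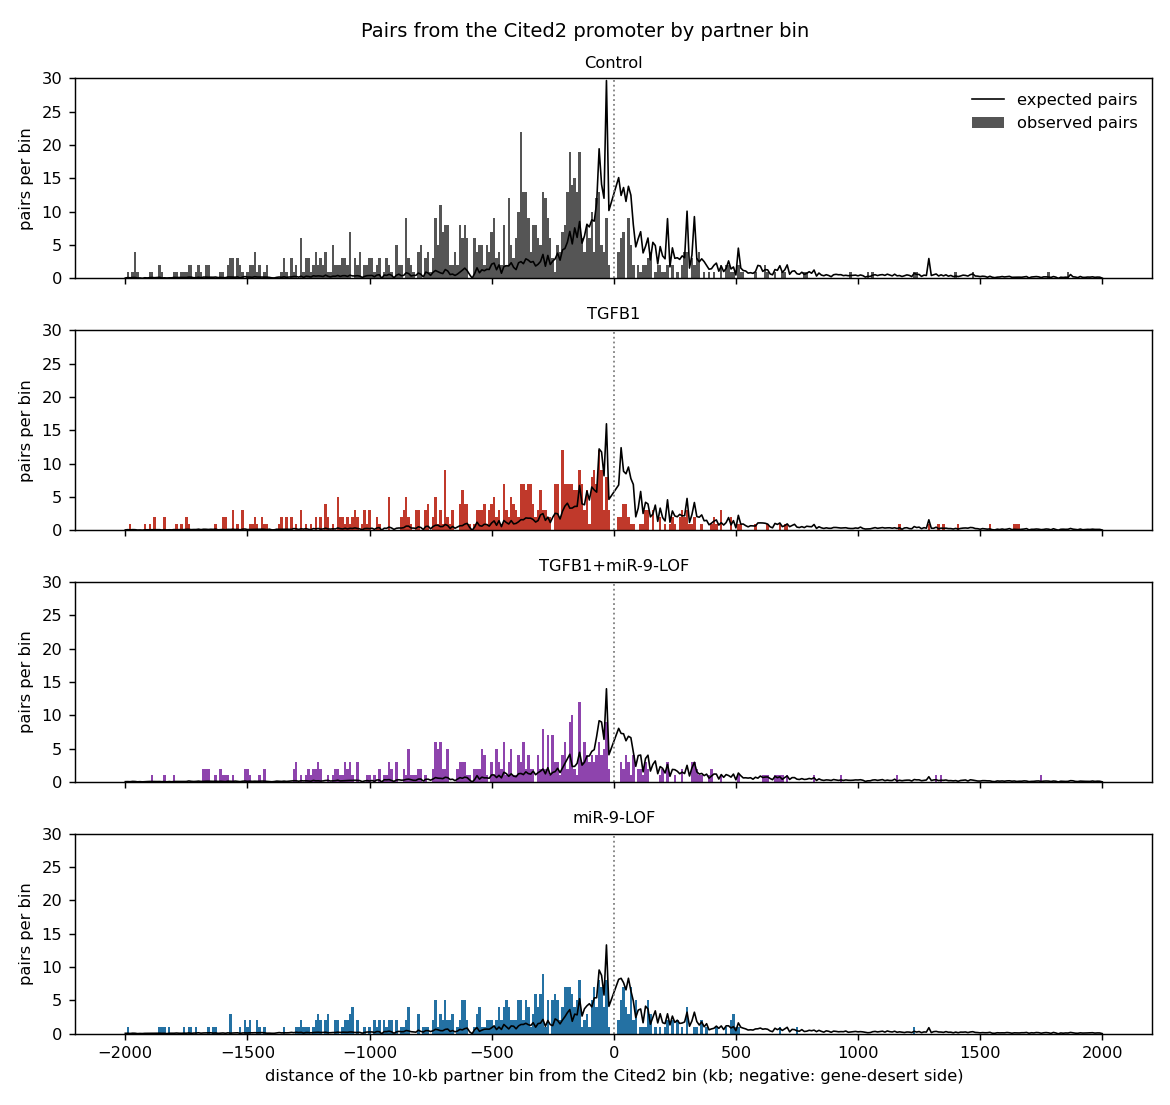
Pairs from the Cited2 promoter (within 10 kb of the TSS) in each 10-kb partner bin against distance in kb, 1 panel per library, with bars for observed and a line for expected pairs. Bars stand above the line over most of the desert side (negative distances) and below it over the gene side in all 4 libraries.

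The excess grew with distance. Over 20 to 100 kb on the desert side pairs were below expectation, with 208 observed and 327 expected (0.64 times, 0.55 to 0.73). At 100 to 250 kb the ratio was 1.65 (1.49 to 1.83), at 250 to 500 kb 2.90 (2.64 to 3.18), at 500 to 1000 kb 4.20 (3.82 to 4.60) and at 1000 to 2000 kb 5.64 (5.07 to 6.26). On the gene side it was 0.37 (0.30 to 0.45) at 20 to 100 kb and 0.21 (0.13 to 0.32) at 1000 to 2000 kb. No interval of a gene-side class reached 1. The median promoter side was also below 1, at 0.73 to 0.74 in the 4 libraries at 250 to 500 kb and 0.53 to 0.61 at 1000 to 2000 kb. Of all promoter sides 23.5% to 30.4% stood lower than the gene side of Cited2 at 250 to 500 kb. At 1000 to 2000 kb 1.75% to 32.4% did, and at 20 to 100 kb 0.288% to 11.2%.

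On the desert side the ratio rose with distance in all 4 libraries, whereas the gene-side classes followed no common order. At 1000 to 2000 kb on the desert side Control had 144 pairs where 21.9 were expected (6.58 times, 5.55 to 7.74), TGFB1 82 where 14.5 were expected (5.66, 4.50 to 7.03), the combined library 64 where 12.6 were expected (5.08, 3.91 to 6.49) and miR-9-LOF 66 where 14.2 were expected (4.66, 3.61 to 5.93). Neighbouring intervals overlapped. The median side of a promoter stood at 0.61, 0.53, 0.57 and 0.59 times expectation at this distance, and 13 of 13823, 13 of 11276, 12 of 11920 and 35 of 13287 promoter sides stood higher than Cited2.

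**Figure D2:**
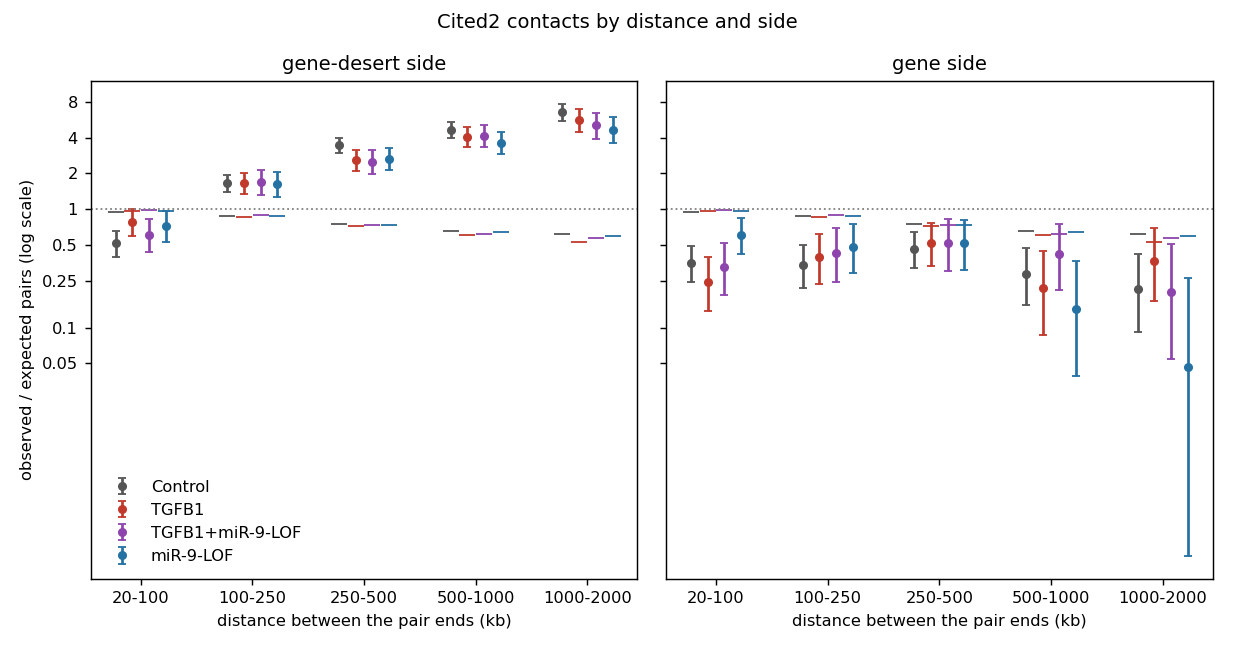
Observed over expected pairs of the Cited2 promoter (log scale) in 5 classes of distance in kb, desert side left and gene side right, with points for the 4 libraries and bars for 95% Poisson intervals. Short lines mark the median of all promoter sides. On the desert side the points climb from below 1 to between 4.66 and 6.58, while on the gene side they stay below 1.

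Contacts were found in most bins of the desert. Of 199 bins of 10 kb on the desert side 168 (84.4%) had more pairs than expected when the libraries were summed, against 11 of 199 (5.53%) on the gene side. In the single libraries the shares were 75.4%, 61.3%, 53.8% and 57.8% on the desert side. On the gene side they were 9.55%, 9.05%, 10.6% and 6.03%. Far desert bins had low expectations, such as 0.15 at -1950 kb, where 1 pair was enough to stand above. Pairs were seen in 179 desert bins and in 87 bins of the gene side. The reach went on past 2 Mb, where 89 pairs of the promoter ended 2 to 3 Mb away on the desert side and 11 on the other. From 3 to 5 Mb the numbers were 42 and 11, and from 5 to 10 Mb 27 and 26, so that the sides no longer stood apart.

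A partner bin was called where a bin pair with an enriched region held at least 2 pairs at a Poisson p of at most 0.01, with all libraries thinned to the 6797551 pairs at least 20 kb apart on 1 chromosome that TGFB1, the smallest, held. Cited2 had 43, 28, 16 and 14 called partners. All of them lay on the desert side. They made up 10.8%, 7.05%, 4.02% and 3.52% of its tested bins, whereas 0.628%, 0.505%, 0.352% and 0.373% of all bin pairs tested were called in the same libraries. Since these calls chose Cited2, the gap is not support for it. Called bins began at 180, 210, 170 and 250 kb and ended at 1960, 1880, 1510 and 1280 kb. A called bin was thinly filled, with a median of 4, 3, 4 and 4 pairs and a maximum of 12 in Control and 6 in miR-9-LOF. Across 12 other ways of calling in each library, 48 fits in all, 0 partners were called on the gene side.

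**Figure D3:**
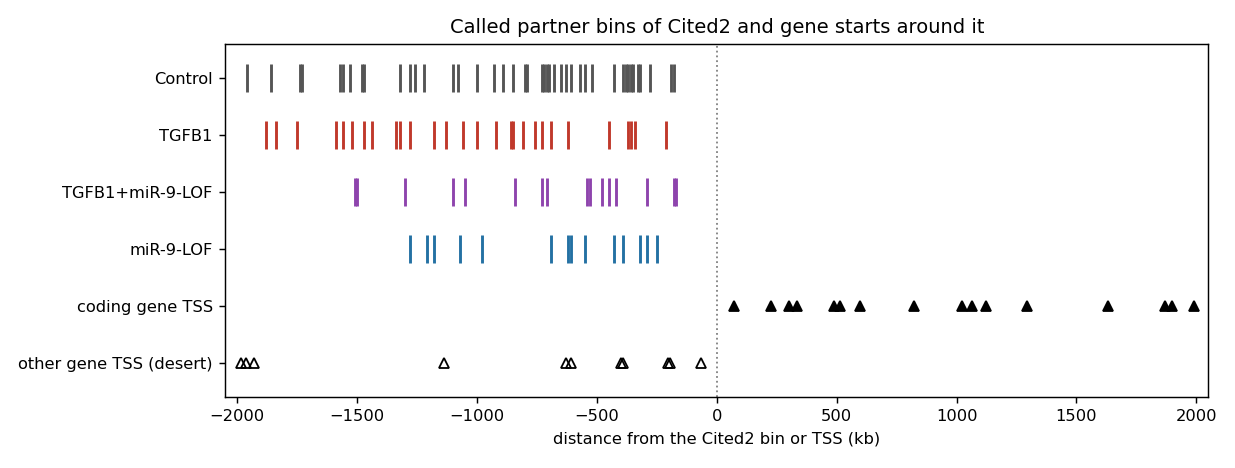
Called partner bins of Cited2 in each library (ticks) against distance in kb, above the TSS of protein-coding genes (filled triangles) and of other desert genes (open triangles). The 43, 28, 16 and 14 ticks lie on the desert side, and the 16 coding TSS on the other.

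By number of partners the Cited2 bin was at place 2 in Control, behind that of Adamts1 with 44, and at place 1, 3 and 13 in the other libraries. In 10 further random thinnings it was first 9 times in Control, 7 times in the combined library and 0 times in miR-9-LOF, while TGFB1, the smallest library, was not thinned. The libraries also differed in pairs that had an end in an enriched region, of which there were 1180419, 604236, 441626 and 574276 at 20 kb to 2 Mb. When all were thinned to an equal number of such pairs, Cited2 had 20, 27, 20 and 15 partners, so the order of the libraries changed with this choice. Over the 12 other ways of calling, its place ranged from 1 to 5 in Control, 1 to 29 in TGFB1, 1 to 9 in the combined library and 11 to 41 in miR-9-LOF.

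Among the bins with most partners in Control, the next after Adamts1, a secreted protease gene, held Inhba (39 partners), which codes for the activin A subunit, Pcdh7 (35), a protocadherin gene, and the transcription factor genes Maf (32) and Sox4 (32). The bin of Tfap2a, whose product CITED2 co-activates, had 30 partners, all on 1 side with 2 coding TSS within 2 Mb where the other side had 15. Of the 10 other bins at the top in Control, 4 had all partners on 1 side, so partners on a single side were not found at Cited2 alone. On the side of most partners 6 of the 10 had fewer coding TSS than on the other. Adamts1, Sox4 and Myc had more there. The share over all bins was not computed for either count, so no link between partners and gene-poor sides is drawn from them.

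**Figure D4:**
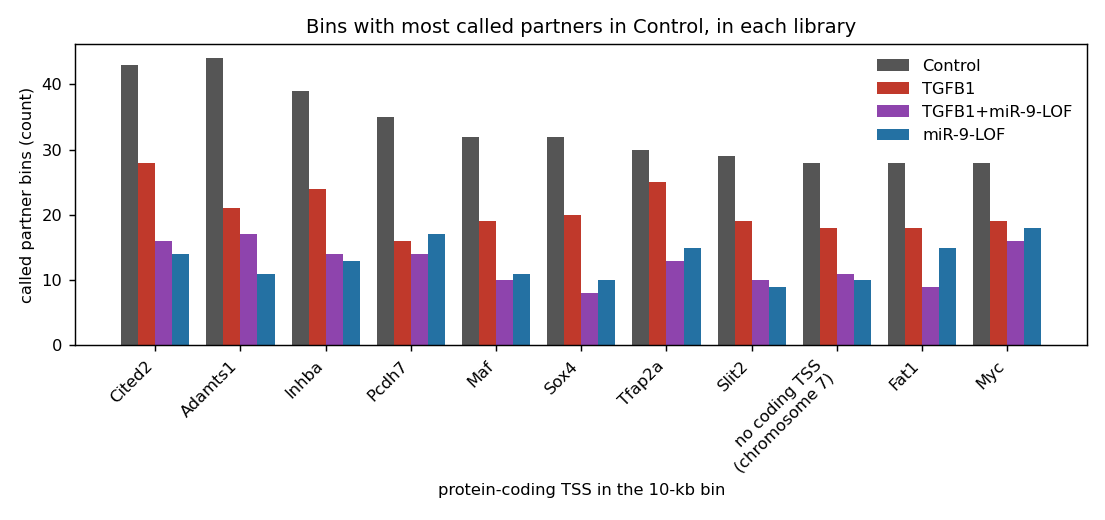
Called partner bins (count) of the Cited2 bin and of the 10 other bins with most partners in Control, named by the protein-coding TSS in the bin, with 1 bar per library. Cited2 has 43 in Control and 14 in miR-9-LOF. The other bins were taken for their number in Control, which also had the most calls over all bin pairs. What part either has in their higher bars there was not tested.

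Of 77 bins called in any library 55 were called in 1 library, 20 in 2, 2 in 3 and 0 in all 4. Called in 2 or more libraries were thus 22 of 77 (28.6%), where 6185 of the 51477 bin pairs called anywhere were. Cited2 was chosen by these calls, which took a larger share of its tested bins than of all bin pairs. More of its bins can recur for that reason alone, so the gap to all calls is not support for its partners. The same holds for the shares of its lists below. Control and TGFB1 shared 9 bins, which were 20.9% of the Control list and 32.1% of the TGFB1 list. Control shared 6 with miR-9-LOF (14.0% and 42.9%) and 4 with the combined library (9.30% of 43, and 4 of 16). TGFB1 shared 4 with miR-9-LOF (14.3% and 28.6%) and 2 with the combined library (7.14% and 12.5%), and both antagomiR libraries shared 1 (6.25% and 7.14%). Of all calls, Control and TGFB1 shared 13.8% and 17.2%, Control and miR-9-LOF 8.94% of the former and 1796 of 11976 of the latter, and Control and the combined library 8.12% and 14.5%. TGFB1 shared 9.69% and 13.1% of all calls with miR-9-LOF and 8.82% and 12.6% with the combined library, the last near the values at Cited2, and the antagomiR libraries shared 8.78% and 8.26%. At full depth Cited2 had 13 bins in common between Control and TGFB1 (23.2% and 46.4%) and 12 between Control and miR-9-LOF (21.4% and 66.7%). Control and the combined library shared 8 there, the antagomiR libraries 3, TGFB1 and miR-9-LOF 3, and TGFB1 and the combined library 2. Allowing for the next bin at equal depth, 23 of the 43 Control bins had a TGFB1 bin beside or at them. Shares over all calls were not computed at full depth or for the next bin. All bins called here lay among 199 desert bins, so some can meet by position, which was not tested.

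Bins with at least 4 pairs in each library numbered 13, all on the desert side, where pairs were many, and the 10 with the highest ratios lay 70 to 730 kb away. Several called bins with fewer than 4 pairs in some library had higher ratios, such as that at -710 kb with 23 pairs (9.62 times, 6.1 to 14.4). The first of the 10, chr10:16990001-17000000, lies 730 kb away in the noncoding gene Gm20125, with 401 exonic bases, and was called in 3 libraries. It had 9, 5, 6 and 5 pairs, which is 25 where 3.26 were expected (7.66 times, 4.96 to 11.3). The second, chr10:17270001-17280000, is intergenic, 450 kb away, and had 8, 7, 6 and 4 pairs (4.10 times, 2.65 to 6.05). The third, chr10:17370001-17380000, also intergenic at 350 kb, had 9, 7, 4 and 4 pairs (3.34 times, 2.14 to 4.97).

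Among these 10, the bins 140 to 210 kb away took most pairs in number. The fullest of the desert, chr10:17580001-17590000, lies in an intron of the lincRNA gene Gm47771 and had 19, 9, 12 and 8 pairs, 48 in all (1.92 times, 1.42 to 2.55). The bin chr10:17540001-17550000 (180 kb, intergenic) had 42 pairs (2.31 times), chr10:17550001-17560000 (170 kb, intergenic) 37 (2.91), chr10:17520001-17530000 (200 kb, with the TSS of the lincRNA genes Gm47769 and Gm47770) 28 (2.08) and chr10:17510001-17520000 (210 kb, in Gm47769) 27 (2.39). The last 2 of the 10, at 90 and 70 kb in Gm47771, had 27 pairs each and stood at 1.13 and 0.92 times, with intervals that included 1. Of the 10, 6 were called in at least 1 library.

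Noncoding genes stood at several partner bins, though a gene TSS lay in 4 of 77 called desert bins and in 6 of 122 not called. A TSS bin that was not called could stand as high, such as that of the lincRNA gene Gm47729 (6.58 times, 2.41 to 14.3). The bin with the TSS of the lincRNA gene Gm47760, at -390 kb from the Cited2 TSS, had 21 pairs where 6.03 were expected (3.48 times, 2.16 to 5.33) and was called in 2 libraries. That of the snRNA gene Gm25382, at -606 kb, had 20 (5.04 times, 3.08 to 7.79), also called in 2, and that of Gm20125, at -627 kb, had 17 (5.81 times, 3.39 to 9.31), called in 1. The bin of the lincRNA gene C330004P14Rik, at -1931 kb, had 0 pairs where 0.0985 were expected.

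The desert side as a whole carried no H3K4me3-enriched region and no coding gene, in its 77 called bins as in the 122 not called. Of the called bins 21 (27.3%) overlapped any annotated gene, against 27.0% of those not called. The highest 1-kb bin of pair ends stood at a median 2.26 times its surroundings in called bins and 2.08 times in uncalled bins, and at most at 4.26 and 3.76 times. Both kinds of bin had a median of 24 MboI sites, and 37.3% and 37.8% of G and C.

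Contacts among the called partners were compared with the rest of the desert. In Control 205 pairs joined called partners at least 20 kb apart where 168 were expected (1.22 times, 1.06 to 1.40). Desert bins that were not called stood at 1.34 times (1.28 to 1.41). In TGFB1 the values were 1.21 (0.97 to 1.49) and 1.24, in the combined library 0.89 (0.60 to 1.27) and 1.26, and in miR-9-LOF 1.33 (0.87 to 1.93) and 1.24. With partners taken from the calls of another library the ratios were 1.43, 1.32, 1.41 and 1.23. At equal depth the interval of the called partners included the value of the bins not called in each library. The bins not called that lay between the outermost called ones stood at 1.31, 1.22, 1.08 and 1.04 times. At full depth the Control partners stood at 1.15 times (1.06 to 1.25), an interval below the value that bins not called had at equal depth. Contacts among the partners of the 10 other top bins in Control ranged from 0.99 to 1.80 times.

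The coding genes on the gene side took fewer contacts from Cited2 than expected. Their 16 promoters shared 85 pairs with it where 199 were expected (0.43 times), and all 16 were below expectation, 6 of them with an interval below 1. For some little was expected, such as Il22ra2 and Il20ra with 0 pairs each where 0.94 and 0.98 were expected. The same ratio was not computed around other promoters. The median promoter side also stood below expectation, for example at 0.73 to 0.74 times at 250 to 500 kb, so values below 1 are not particular to Cited2. Txlnb, the nearest, shared 30 pairs where 66.6 were expected (0.45 times, 0.30 to 0.64). Heca shared 8 (0.33, 0.14 to 0.66), Abracl 15 (0.56, 0.32 to 0.93) and Reps1 12 (0.44, 0.23 to 0.76). Tnfaip3, which codes for an inhibitor of NF-kappaB signalling and has an enriched region, shared 1 pair where 7.39 were expected.

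Together these neighbours sent 881 pairs into the desert where 946 were expected from distance and coverage (0.93 times), a sum over near and far genes. Txlnb sent 187 pairs there where 204 were expected (0.92 times, 0.79 to 1.06), Heca 109 (0.98, 0.80 to 1.18), Abracl 151 (1.11, 0.94 to 1.30) and Reps1 164 (1.09, 0.93 to 1.27). Tnfaip3 sent 26 (0.55, 0.36 to 0.81). The intervals of 4 of the 16 lay below 1, those of Hebp2, Arfgef3, Perp and Tnfaip3, which are 823 to 1292 kb from Cited2. No value was above 1.12.

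Pairs that crossed the Cited2 TSS without ending near it were also below expectation. Between the 500 kb on either side, leaving out 10 kb around the TSS, 318 pairs were seen in Control where 502 were expected (0.63 times, 0.57 to 0.71). The ratio was 0.60 in TGFB1, 0.60 in the combined library and 0.62 in miR-9-LOF. The median promoter stood at 0.71 to 0.73 times, and 33.4% to 39.5% of promoters stood lower than Cited2.

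Of all pairs that ended at the Cited2 promoter, 65.1%, 64.8%, 63.0% and 61.1% lay 20 kb to 2 Mb apart, where the median promoter had 42.7% to 45.4%. Pairs with another chromosome made up 9.60%, 7.62%, 13.2% and 13.4%, which was under the median promoter (18.6%, 16.6%, 21.8% and 20.8%). In each library 99.5% to 99.8% of promoters had a smaller share of pairs at 20 kb to 2 Mb.

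The level of contacts was lower in both antagomiR libraries. Cited2 had 126 contacts per 1000000 pairs of 20 kb to 2 Mb in Control (95% Poisson interval 117 to 134), 106 in TGFB1 (97.4 to 116), 68.4 in the combined library (61.9 to 75.4) and 64.9 in miR-9-LOF (58.9 to 71.4). The intervals of the antagomiR libraries overlapped each other and lay below those of Control and TGFB1. The median promoter had 44.8, 36.9, 29.1 and 30.8, and among 8122 promoters Cited2 was at place 133, 65, 106 and 310.

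As log2 ratios, Cited2 stood at -0.24 in TGFB1 over Control (95% interval -0.40 to -0.08), at -0.64 in TGFB1+miR-9-LOF over TGFB1 (-0.83 to -0.45), at -0.95 in miR-9-LOF over Control (-1.12 to -0.78) and at 0.07 in TGFB1+miR-9-LOF over miR-9-LOF (-0.12 to 0.27). The median promoter stood at -0.29, -0.35, -0.56 and -0.08. Cited2 minus that median was 0.05, -0.29, -0.39 and 0.16, and 62.5%, 6.89%, 2.81% and 82.2% of promoters had a lower ratio. Cited2 was chosen by its called partners, which were most in Control and next in TGFB1. These differences and places are thus not independent of that choice and are given as description. The share of all promoters at least 1.5-fold lower was 3.48%, 11.5%, 45.6% and 0.456% in the 4 contrasts, and Cited2 was past that fold in TGFB1+miR-9-LOF over TGFB1 and in miR-9-LOF over Control. With a window of 25 kb around the TSS the first of these was -0.43 and no longer past it.

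The ratios below 0 did not stay there under every total. Another total was that of pairs with at least 1 end in enriched chromatin, whose share differed between libraries. Per 1000000 of these the log2 ratios were 0.25 (0.08 to 0.41), 0.13 (-0.06 to 0.32), 0.07 (-0.10 to 0.24) and 0.31 (0.11 to 0.51). The intervals of TGFB1+miR-9-LOF over TGFB1 and of miR-9-LOF over Control thus included 0. The median promoter stood at 0.19, 0.41, 0.46 and 0.15. Cited2 minus the median does not depend on the total and was the same. The share of pair ends in enriched regions was also highest in Control and next in TGFB1, though lower in the combined library than in miR-9-LOF, and its part in the ratios was not tested.

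**Figure D5:**
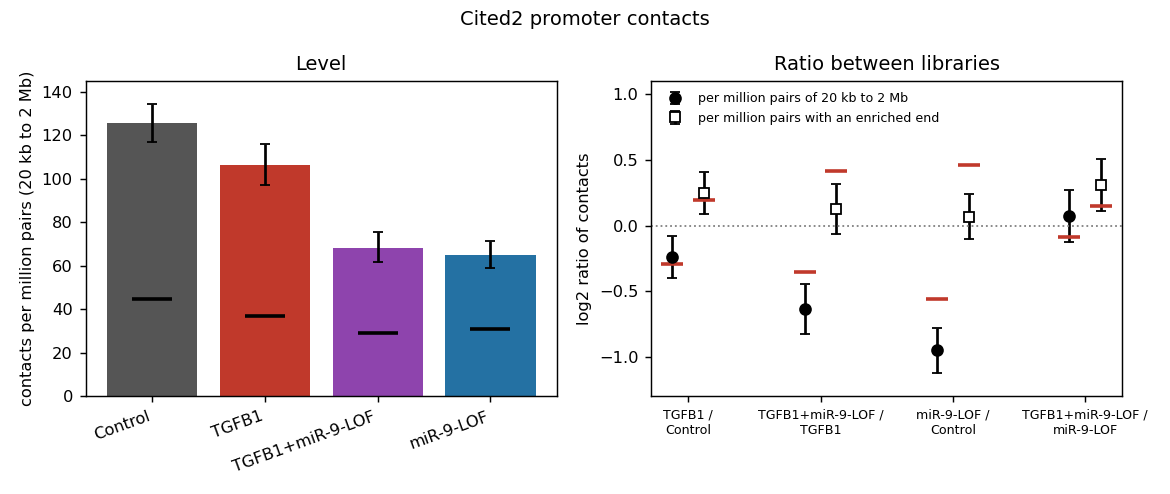
Left, contacts of the Cited2 promoter per 1000000 pairs in each library, with 95% Poisson intervals and a black line at the median of 8122 promoters. Right, log2 ratios between libraries with 95% intervals for both totals (circles and squares) and red lines at the median promoter: circles lie below 0 in 3 contrasts, and squares above 0 in all 4.

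The split of the contacts between sides and distances was then compared. Fisher's exact test (two-sided, 8 comparisons with Benjamini-Hochberg adjustment) compares the pairs of 2 libraries, not conditions. Cited2 was chosen by its called partners, which all lay on the desert side at 170 kb or more. These shares are thus not independent of that choice, and the p-values are given as description. The desert share was 4.42 percentage points lower in miR-9-LOF than in Control (difference -4.42, p = 0.0461, adjusted p = 0.206 by Fisher's exact test), and in the other 3 contrasts it differed by -0.94 (TGFB1 and Control), -1.46 (TGFB1+miR-9-LOF and TGFB1) and 2.02 points (TGFB1+miR-9-LOF against miR-9-LOF), each with an adjusted p of 0.717. With a window of 25 kb around the TSS, the difference of miR-9-LOF from Control was -7.34 points with an adjusted p of 0.00358.

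Pairs beyond 200 kb made up 72.1%, 70.2%, 70.0% and 66.8% of the contacts, and 40.3% to 42.1% at the median promoter. The difference of miR-9-LOF from Control was -5.32 points (adjusted p = 0.206, Fisher's exact test), and -6.79 points with an adjusted p of 0.0117 when the split was set at 100 kb. The other contrasts differed by -1.95, -0.17 and 3.20 points, with adjusted p of 0.717, 1 and 0.717. None of the 8 differences passed an adjusted p of 0.05 as first computed.

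Read coverage differed between the sides. Outside enriched regions a 10-kb bin on the desert side held 1.07 to 1.16 times the autosomal median of pair ends, chromosome 10 as a whole 1.26 to 1.30 times and the gene side 1.41 to 1.46 times. Both ends had a mapping quality of at least 30 in 88.0% to 91.7% of the pairs at the Cited2 promoter. These values were alike in the 4 libraries. With only pairs of that mapping quality the desert side stood at 2.15, 2.04, 1.92 and 1.94 times expectation and the gene side at 0.34, 0.33, 0.40 and 0.40 times. Coverage is part of the expectation, and its further part in the split between sides was not tested.

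The promoters most like Cited2 in their level over the 4 libraries, by Euclidean distance of log2 contacts per 1000000 pairs, were those of Tcf7l2 (distance 0.12), a transcription factor of Wnt signalling, the collagen gene Col5a1 (0.12), Arid5b (0.14), Cenpt (0.14) and Tbxas1 (0.15). Tcf7l2 had 130 contacts per 1000000 pairs in Control and 65.8 in miR-9-LOF. They did not share its shape, with 44.9%, 68.8%, 48.1%, 46.9% and 53.9% of their Control pairs on the lower side and 0 to 5 called partners in that library. In the others they had 0 to 7.

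Of 25 genes listed as relatives, partners and targets of CITED2, 12 had an enriched region within 2 kb of the TSS, beside 8122 of all 21755 protein-coding genes. Only the gene-level TSS of each gene was looked at, so a region at another start would be missed. Cited1 and Cited4, the other family members, did not, and neither did Hif1a. The others without one were Hif3a, Arnt, Tfap2b, Tfap2c, Lhx2, Ppara, Pparg, Hnf4a and Nodal. The gene-level TSS of Tfap2a was also without one, although its bin was among those with most partners. Among the co-activators Crebbp had 36.0 contacts per 1000000 pairs in Control and Ep300 65.7. Of the SMAD partners Smad3 had 98.8 and Smad2 14.0.

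Vegfa, a HIF target that codes for an angiogenic factor, had the most contacts of the list, with 159, 134, 88.4 and 97.5 per 1000000 pairs. It also had the most called partners, 12, 9, 6 and 9, all fewer than Cited2 in the same library. The 12 genes had a median of 3, 3, 2 and 3 partners, against 2, 1, 1 and 1 for all promoters. Their median log2 ratio was -0.37 in TGFB1 over Control, -0.25 in TGFB1+miR-9-LOF over TGFB1, -0.64 in miR-9-LOF over Control and -0.05 in TGFB1+miR-9-LOF over miR-9-LOF, near that of all promoters, and all 4 medians were above 0 per 1000000 pairs with an enriched end. At least 1.5-fold lower were 1, 1, 9 and 0 of the 12, beside 3.48%, 11.5%, 45.6% and 0.456% of all promoters, and 0 were as much higher. Per 1000000 pairs with an enriched end 0 were lower in any contrast, and 1, 4, 1 and 1 were higher, where 167, 1649, 2400 and 75 of all 8122 promoters were.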

How the data were processed

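H3K4me3 HiChIP-seq was done in 4 libraries of MLg cells, 1 per condition. With HiC-Pro the authors aligned reads to mm10, dropped duplicates, assigned MboI fragments and made the deposited lists of valid pairs. The deposited values used were positions, fragment numbers and the mapping quality score of each end, and pairs were counted here. On chromosome 10, 99.98% of the fragment numbers checked were within 1 fragment of the GRCm38 MboI map.

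Counting used numpy 2.4.6, scipy 1.17.1 and pandas 2.3.3 under Python 3.11.15, and GENCODE vM21 genes. Enriched regions were 1-kb bins of pair ends, pooled over libraries thinned to equal size, at a false discovery rate of 0.01 and 4-fold or more above background, which was the mean of 100 kb around or, if higher, of the chromosome. Expected pairs came from bin coverage by intrachromosomal pairs at least 20 kb apart and a distance factor, smoothed over 10 kb for windows around a TSS. Enriched-region promoters had a TSS within 2 kb of a region. Named were Cited2, the nearest coding gene on each side, coding genes in called partner bins (there were 0), the 5 other bins with most partners in Control, the 5 promoters most alike in level, the 10 bins furthest above expectation among those with at least 4 pairs in each library and a list of 25 genes. Heca, Abracl, Reps1, Tnfaip3, the noncoding genes, the bin at -710 kb and the crossing pairs were chosen after their values were seen. The members and lists were chosen with earlier results of these data known. Procedures were tested on simulated data. The alternatives were other depths, bins, thresholds, windows, totals, coverages and filters.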

Additional observations from a re-analysis of the deposited data

Results flagged for a closer look

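In 3 measures of Cited2 the library with TGFB1 differed from its counterpart in opposite directions without and with the antagomiR. The difference between the contrasts was not tested, since each rests on 1 library per condition. The log2 ratio of contacts per 1000000 pairs was -0.24 for TGFB1 over Control and 0.07 for TGFB1+miR-9-LOF over miR-9-LOF, whose interval included 0. Per 1000000 pairs with an enriched end both were above 0, at 0.25 and 0.31. The desert share differed by -0.94 points and by 2.02 points, and the share beyond 200 kb by -1.95 points and by 3.20 points, and none of these 4 differences passed Fisher's exact test after adjustment. With a window of 25 kb the differences beyond 200 kb were -1.78 and -0.40, in the same direction.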

How the results depend on the processing

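No paired analysis was possible because each condition had 1 library. The combined library is that of TGFB1+miR-9-LOF. Of 236 alternative values 164 stayed within the limit set for them (1.5 times for counts, the 95% interval for others, the direction and the side of the threshold for tests). Some of these could not differ, since TGFB1, the smallest library, was not thinned. Contacts among partners in TGFB1+miR-9-LOF stayed within the limit but turned from 0.89 to 1.22 times expectation at full depth. Thin counts limit single partner bins, and the absence of replicates limits every contrast.

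Partner bins in Control numbered 20 at equal pairs with an enriched end, 21 at p of at most 0.001, 27 with at least 4 pairs and 27 up to 1 Mb. In TGFB1 they numbered 9 at p of at most 0.001, 13 with at least 4 pairs and 14 up to 1 Mb, and in TGFB1+miR-9-LOF 7 and 10 at the first and second of these. In miR-9-LOF they numbered 5 at p of at most 0.001, 8 with at least 4 pairs, and 9 with 5-kb bins, with mapping quality of at least 30 or with coverage from pairs of 20 kb to 2 Mb only, an alternative chosen after seeing the data. Fewer bin pairs can pass a stricter threshold. The cause of the other shifts was not tested.

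Shared partners at full depth were 8 for Control and TGFB1+miR-9-LOF, 12 for Control and miR-9-LOF and 3 for both antagomiR libraries. At p of at most 0.001 Control shared 2 with TGFB1, 2 with TGFB1+miR-9-LOF and 1 with miR-9-LOF, TGFB1 shared 0 with TGFB1+miR-9-LOF and 1 with miR-9-LOF, and the antagomiR libraries shared 0. Contacts among partners called in at least 2 libraries were 1.48 times expectation in Control and 1.36 times in TGFB1+miR-9-LOF.

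Per 1000000 pairs with an enriched end, Cited2 ratios were 0.25 for TGFB1 over Control, 0.13 for TGFB1+miR-9-LOF over TGFB1, 0.067 for miR-9-LOF over Control and 0.31 for TGFB1+miR-9-LOF over miR-9-LOF, and list medians were 0.12, 0.52, 0.37 and 0.18. The intervals of the second and the third Cited2 ratio included 0. With a 25-kb window the second and the third ratio were -0.43, which was no longer 1.5-fold, and -0.72.

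Promoters past 1.5-fold lower within 5 kb of the TSS numbered 947, 2717, 5697 and 180 in the order of those contrasts, and higher 2, 3 and 9 in the first, the second and the last. Within 25 kb 22, 65, 1078 and 10 were lower, with 4 higher in the second contrast and 0 in the last. Per 1000000 pairs with an enriched end 3, 0, 0 and 7 were lower and 167, 1649, 2400 and 75 higher.

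The share beyond 200 kb of TGFB1+miR-9-LOF minus TGFB1 turned to 1.37 points within 5 kb, 1.14 with a split at 100 kb and 1.42 at 500 kb, and that of TGFB1+miR-9-LOF minus miR-9-LOF to -0.40 within 25 kb. miR-9-LOF minus Control passed the threshold at -7.34 points for the desert share within 25 kb and at -6.79 for the split at 100 kb. Since Cited2 was chosen by its called partners, these shares are not independent of that choice.

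With a 25-kb window the desert side stood at 2.00, 1.83, 1.71 and 1.73 times expectation (Control, TGFB1, the combined library, miR-9-LOF) and the gene side at 0.43, 0.46, 0.51 and 0.57 times, and 11.4% of Control pairs lay beyond 2 Mb. With a 5-kb window the gene side in Control stood at 0.29 times.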
